A study of Mus musculus with 34 samples.

Results

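The 10 genes described here carry out gluconeogenesis, glucose export and glycogen turnover in the liver. They were chosen by name, with earlier results of these data known, out of 37583 genes in the deposited mRNA table. Of them 6 are for making and releasing glucose (Pck1, G6pc, Fbp1, Pcx, Slc37a4, Slc2a2) and 4 for glycogen (Gys2, Pygl, Ppp1r3b, Ppp1r3c). The mRNA came from mouse liver in 3 libraries labelled KO, from F1 mice (C57Bl6/CBA) of genotype Setd8lox/lox-Alb-Cre, and in 3 libraries labelled WT, from wild-type mice of the same strain. All animals were 45 days old and had standard chow and water ad libitum. The labels give no hour of collection. Setd8, also called Kmt5a or PR-Set7, encodes the enzyme that adds the first methyl group to lysine 20 of histone H4. Alb-Cre is used to delete a floxed exon in hepatocytes, and which other liver cells keep the gene was not checked. Nascent RNA was sequenced by 2 methods, each with 1 library labelled KO and 1 labelled WT. In the first, ethynyl uridine (EU) was injected at 25 mg per kg 30 min before death and labelled nuclear RNA was captured. In the second, isolated nuclei ran on for 3 min with bromouridine triphosphate (Br). A further set of 24 chromatin samples was left unanalysed here. Replicates carry a number in the labels and no animal is named, so a p-value reflects how libraries of a group vary, and that variation may be technical.

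The liver makes glucose from lactate, amino acids and glycerol. Pyruvate carboxylase (Pcx) turns pyruvate into oxaloacetate, the cytosolic phosphoenolpyruvate carboxykinase (Pck1) turns oxaloacetate into phosphoenolpyruvate, fructose bisphosphatase (Fbp1) removes a phosphate further along the path, and glucose-6-phosphatase (G6pc) frees glucose. Slc37a4 carries glucose 6-phosphate to G6pc in the endoplasmic reticulum, and Slc2a2, the transporter GLUT2, lets glucose cross the cell membrane. Gys2 is the liver glycogen synthase and Pygl the liver glycogen phosphorylase, while Ppp1r3b and Ppp1r3c are subunits that bring protein phosphatase 1 to glycogen. Fasting, glucagon and glucocorticoids are known to raise transcription of Pck1 and G6pc, and insulin to lower it.

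The mRNA files hold scaled values, which are read numbers that the authors divided by a size factor per library and rounded. They summed to between 18069344 and 20102731 in the libraries labelled KO and to between 20066093 and 25820906 in those labelled WT. WT replicate 3 stood apart: only 20077 genes were detected in it, where the remaining 5 libraries had 24497 to 26247, and it alone lay far out on the first principal component. Kmt5a had 1199, 1040 and 1075 scaled units in libraries labelled KO, against 593, 615 and 1076 in those labelled WT. The targeted gene was thus not lower in the libraries labelled KO, and its value counts the whole gene, not the floxed exon alone. When WT replicate 3 was left out Kmt5a passed as higher in KO libraries (log2 difference 0.87, limma adjusted p = 0.0198). In the single nascent libraries the log2 ratio of Kmt5a, labelled KO over labelled WT, was 0.36 in EU (95% counting interval 0.15 to 0.57) and 0.27 in Br (-0.15 to 0.69). KO and WT are used below as the labels give them. Summed hepatocyte markers lay between 2075926 and 2388428 in KO libraries and between 2130454 and 3324925 in WT libraries. Summed macrophage markers lay between 8440 and 19385 in KO libraries and between 5440 and 7063 in WT libraries, with 2 of 10 genes called higher by limma (2.71% of all genes were called). The sums of bile duct markers were 2538 to 3097 in KO libraries and 1176 to 1812 in WT libraries. Of those 8 genes 6 lay higher and 2 lower, with a median log2 difference of 0.14, and Spp1, at 1.85, was the 1 that was called. The sums of stellate cell markers were 6960 to 8643 in KO libraries and 4273 to 5935 in WT libraries. Of those 10 genes 8 lay higher and 2 lower (median log2 difference 0.72, lowest -0.89), and 1 was called higher. No gene of these lists was at 0, and the part of such cells in the results below was not tested. In bulk liver, fewer cells of a type and less RNA per cell cannot be told apart.

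The bases before 3 start sites are shown because cAMP signalling and a TATA box are textbook features of this kind of promoter. RefSeq promoters (build GRCm38.p6, 250 bases before to 50 after a start) were found for 8 of the 10 genes. Gys2 and Ppp1r3b had none and were not searched. The 8 genes had 11 starts, and a gene counts below if any of its starts matches. The shares of all promoters count each start apart. Each line gives the 150 bases before the first listed start, 5′ to 3′ on the + strand, at chr2:173152923-173153072 for Pck1, chr11:101367566-101367715 for G6pc and chr9:44396796-44396945 for Slc37a4. Capitals mark TGACG, the half-site of the cAMP response element, TATAAA, the TATA box, and GGGCGG, the GC box, on either strand.
Pck1: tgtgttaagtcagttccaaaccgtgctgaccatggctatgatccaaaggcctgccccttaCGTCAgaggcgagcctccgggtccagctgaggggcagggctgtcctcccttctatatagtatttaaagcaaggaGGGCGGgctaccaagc
G6pc: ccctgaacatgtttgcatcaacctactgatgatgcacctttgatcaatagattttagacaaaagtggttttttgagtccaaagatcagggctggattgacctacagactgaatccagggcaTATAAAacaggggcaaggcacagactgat
Slc37a4: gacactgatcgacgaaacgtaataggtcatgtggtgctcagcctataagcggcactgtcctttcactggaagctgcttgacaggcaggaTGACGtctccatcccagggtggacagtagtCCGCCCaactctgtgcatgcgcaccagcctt

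The Pck1 sequence holds a half-site on the minus strand with its first base at -90 and a GC box at -16, and the G6pc sequence holds TATAAA at -29. In the whole windows, TGACG was found for Pck1, Slc37a4 and Pygl, and in 20.8% of all 32851 promoters in the table. TATAAA was found for G6pc and for another start of Slc37a4, and in 13.6% of all promoters. Only exact letters were searched, so near variants of any motif were not counted. In the Pck1 sequence above these include tatttaaa and, for TGACGTCA, ttaCGTCA. GGGCGG was found for Pck1, Fbp1, Pcx, Slc37a4 and Pygl (35.7% of all), and the E-box CACGTG for Pcx and Ppp1r3c (7.15% of all). The 4 other motifs searched on both strands had no match in these windows: the full response element TGACGTCA (1.79% of all), the FOXO and FOXA core TGTTTAC (3.65%), the HNF4 motif CAAAGTCCA (0.475%) and the glucocorticoid receptor half-site AGAACA (19.0%). TGACG is also part of TGACGTCA. A match describes letters only.

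Per kilobase of exon, Pck1 had the highest mRNA level of the 10 genes and the glycogen targeting subunits the lowest. Pck1 averaged 27855 scaled units per kb in KO libraries and 14871 in WT libraries. Fbp1 followed with 8561 in KO and 7911 in WT libraries, then G6pc with 5883 in KO and 3596 in WT libraries, and Pcx with 2816 in KO and 3135 in WT libraries. The ranges of Fbp1 and G6pc overlapped in KO libraries, where they ran per kb over 7398 to 9167 for Fbp1 and 3442 to 10551 for G6pc. In WT libraries the ranges of Pcx (2949 to 3445) and Gys2 (2358 to 4202) overlapped, while in KO libraries Pcx (2496 to 3388) lay above Gys2 (942 to 1354). Gys2 had a mean of 1203 per kb in KO libraries, below Slc37a4 with 1446, and of 2998 per kb in WT libraries, above Slc37a4 with 2364, with overlapping ranges of these 2 genes on both sides. Ppp1r3b and Ppp1r3c had means per kb of 400 and 429 in KO libraries and of 331 and 326 in WT libraries, within each other's range.

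The genes split between higher and lower mRNA, and none passed the test across all genes. With limma on log2 of the scaled value plus 1, 0 of the 10 genes were called at an adjusted p under 0.05, against 2.71% of the 16813 genes tested. All 10 genes were tested. At an unadjusted p under 0.05 there were 2 of the 10, Pck1 and Gys2, the same share as the 20.0% of all genes. By edgeR with TMM scaling on re-estimated reads 0 of the 10 were called, where 257 of all genes were called higher and 219 lower. By DESeq2 on re-estimated reads 1 of the 10 was called, Gys2, against 5.49% of all genes. The libraries of the groups did not overlap for the same 2 genes, Pck1 and Gys2, or 2 of 10, where 26.0% of all genes did not overlap. The log2 differences were above 0 for 6 genes and below 0 for 4, with a median of 0.12, beside 0.00 for all genes tested.

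**Figure D1:**
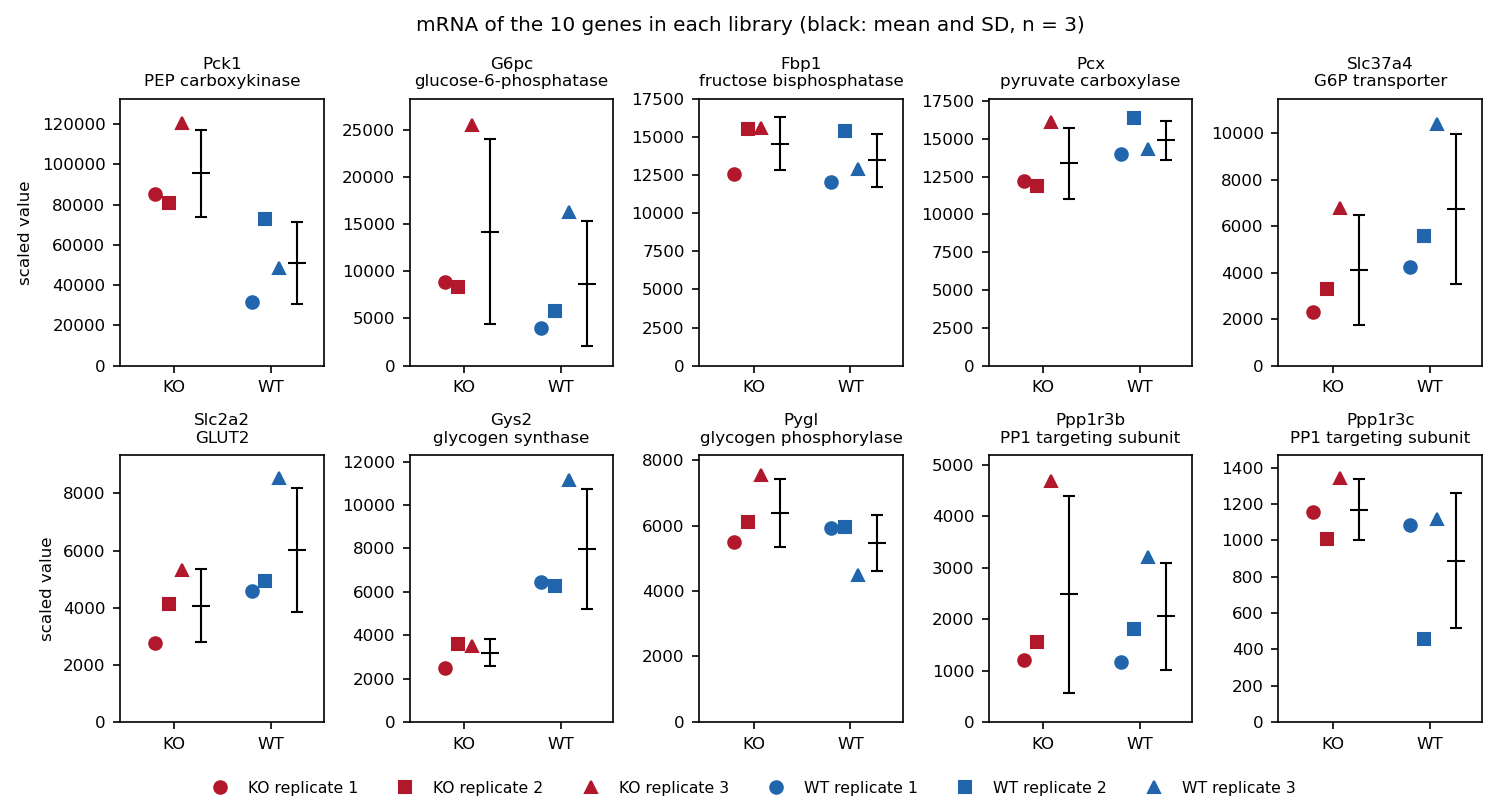
mRNA of the 10 genes, in scaled units on linear axes that start at 0, with 1 point per library and the mean and SD in black (n = 3 each). KO and WT points do not overlap for Pck1, where all KO libraries are higher, and for Gys2, where all are lower.

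Pck1, an enzyme of gluconeogenesis from lactate and amino acids, had 85344, 80752 and 120443 scaled units in KO libraries, against 31824, 72619 and 48535 in WT libraries. The lowest KO library lay above the highest WT library, by a small margin beside the 2.28-fold spread within WT. Pck1 averaged 95513 ± 21712 in KO and 50993 ± 20508 in WT libraries (SD, n = 3 each). On the log2 scale Pck1 was 0.96 higher in KO libraries (SE 0.34), with a limma adjusted p = 0.163. G6pc had 8824, 8308 and 25471 units in KO libraries, against 4001, 5754 and 16285 in WT libraries. The groups overlapped, and replicate 3 was the highest library on both sides. The G6pc difference was 0.77 on the log2 scale (SE 0.59, limma adjusted p = 0.518), and the fits that each left out 1 library gave 0.25 to 1.36.

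Fbp1 and Pcx, at 2 other steps, had small differences beside their spread. Fbp1 had 12591, 15517 and 15602 units in KO libraries, against 12065, 15429 and 12900 in WT libraries, a difference of 0.11 as log2 (SE 0.21, limma adjusted p = 0.812). Pcx had 12189, 11863 and 16104 units in KO libraries, against 14017, 16375 and 14305 in WT libraries, a difference of -0.17 as log2 (SE 0.21, limma adjusted p = 0.723). Both genes had overlapping groups and the smallest spread within groups among the 6 genes of glucose production.

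The 2 transporters lay lower on average in KO libraries with overlapping groups. Slc37a4 had 2308, 3290 and 6797 units in KO libraries, against 4257, 5596 and 10405 in WT libraries. KO replicate 3 lay above the 2 lower WT libraries. The log2 difference of Slc37a4 was -0.75 (SE 0.45, limma adjusted p = 0.402), and leaving out 1 library at a time gave -1.19 (without KO replicate 3) to -0.39 (without WT replicate 3). Slc2a2 had 2758, 4126 and 5333 units in KO libraries, against 4599, 4936 and 8523 in WT libraries, a difference of -0.56 as log2 (SE 0.32, limma adjusted p = 0.386). Over the left-out libraries it ran from -0.78 without KO replicate 3 to -0.28 without WT replicate 3. The 2 transporter genes followed each other over the 6 libraries (Pearson r = 0.97, as a description of libraries that share depth and genotype).

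Gys2, the liver glycogen synthase, showed the largest difference of the 10 genes in mRNA. It had 2502, 3598 and 3490 scaled units in KO libraries, against 6465, 6265 and 11165 in WT libraries. Every KO library lay below every WT library, and the highest value was that of WT replicate 3. Gys2 averaged 3197 ± 604 in KO and 7965 ± 2773 in WT libraries (SD, n = 3 each), 2.43-fold lower on the fitted scale (-1.28 as log2, SE 0.28). The limma adjusted p of Gys2 was 0.0537. When WT replicate 3 was left out, the Gys2 difference was -1.01 and passed (limma adjusted p = 0.0254), in a fit that called 9.91% of all genes.

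The other glycogen genes did not pass the test. Pygl, which breaks glycogen down, had 5496, 6109 and 7541 units in KO libraries, against 5943, 5970 and 4491 in WT libraries, a difference of 0.22 as log2 (SE 0.21, limma adjusted p = 0.624). Ppp1r3b had 1211, 1559 and 4691 units in KO libraries, against 1171, 1802 and 3203 in WT libraries, and replicate 3 was again the highest on both sides. Its log2 difference was 0.13 (SE 0.54, limma adjusted p = 0.929), and it was -0.46 without KO replicate 3 and -0.22 without WT replicate 1. Ppp1r3c had 1156, 1010 and 1342 units in KO libraries, against 1083, 459 and 1119 in WT libraries, where WT replicate 2 alone was low. The log2 difference of Ppp1r3c was 0.50 (SE 0.34, limma adjusted p = 0.472), and it was 0.08 without WT replicate 2.

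Replicate 3 was often the highest library of its group. KO replicate 3 was the highest KO library for 9 of the 10 genes, where it was so for 35.2% of all genes tested. WT replicate 3 was the highest WT library for 6 of the 10, where it was so for 43.7% of all genes tested.

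Opposing enzymes of glucose metabolism can be set against each other within a library, which removes the scaling between libraries. The 3 ratios were chosen after the values were seen. Pck1 over Pklr, the liver pyruvate kinase that works against it, was 69.8, 62.9 and 58.1 in KO libraries, against 6.33, 15.7 and 12.0 in WT libraries. For Fbp1 over Pfkl, a liver phosphofructokinase, the ratio was 17.7, 25.1 and 22.7 in KO libraries, against 12.9, 17.5 and 13.9 in WT libraries.

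Both ratios of a glucose-making to a glucose-using enzyme were higher in every KO library than in any WT library. For Fbp1 over Pfkl the margin was narrow, 17.7 in the lowest KO library against 17.5 in the highest WT library. For Pck1 over Pklr it followed from the 2 genes, since neither overlapped between groups and they went opposite ways. Of all single genes tested 26.0% did not overlap. The fold was 5.98 for Pck1 over Pklr and 1.48 for Fbp1 over Pfkl. Gys2 over Pygl, synthase over phosphorylase, was 0.455, 0.589 and 0.463 in KO libraries, against 1.09, 1.05 and 2.49 in WT libraries, 2.84-fold lower. The ratios carry no test, since they were picked with their values in view, and an exact permutation test of 3 libraries against 3 could not give a p under 0.1. Without WT replicate 3 the log2 differences of the ratios were 2.67 for Pck1 over Pklr, 0.52 for Fbp1 over Pfkl and -1.10 for Gys2 over Pygl.

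**Figure D2:**
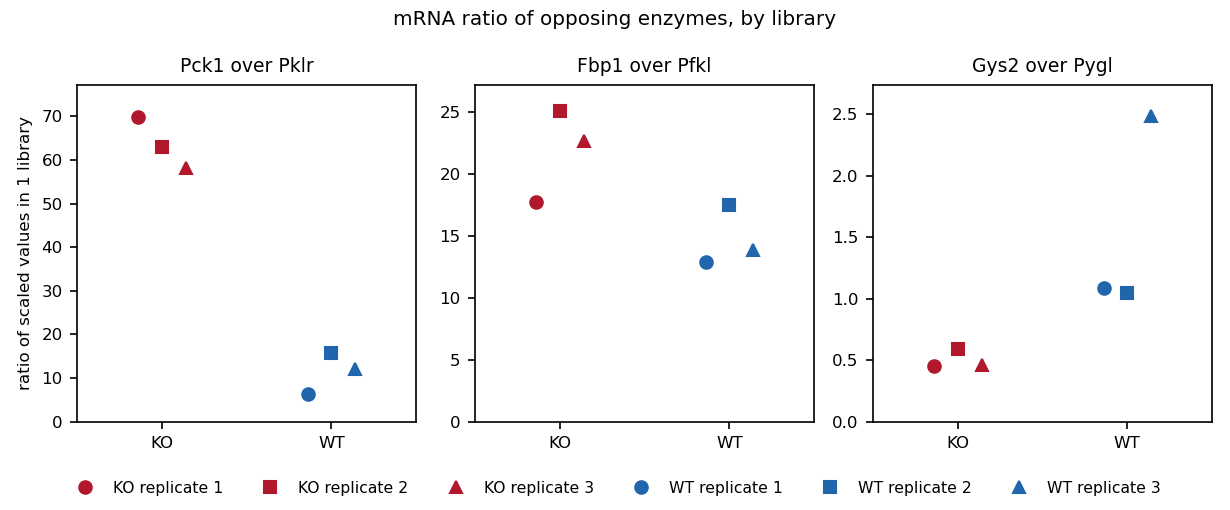
Ratio of the scaled values of 2 opposing genes within each mRNA library, on linear axes that start at 0, with 3 KO points at the left and 3 WT points at the right of each panel. The KO points lie above all WT points in the first 2 panels, narrowly so for Fbp1 over Pfkl, and below them for Gys2 over Pygl.

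In the other lists of glucose metabolism Pklr fell and Irs2 and Nr1d1 rose. The counts below stand beside 2.71% of all genes called and 20.0% at an unadjusted p under 0.05. Of 27 tested other glycogen genes 0 were called (median log2 difference -0.24), with 8 at an unadjusted p under 0.05. Of 25 tested genes for other gluconeogenic enzymes and substrate supply 0 were called (median 0.05), with 5 at an unadjusted p under 0.05. Of 8 genes for the reversible steps shared with glycolysis 0 were called (median -0.19), and 0 had an unadjusted p under 0.05. These counts and medians come from limma, and the median over all genes tested was 0.00. Without WT replicate 3, limma called 1 gene lower among the other glycogen genes and 2 higher among the other gluconeogenic genes, in the fit that called 9.91% of all genes.

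Of 14 genes for opposing steps of glucose use, 1 fell and 0 rose, where 2.71% of all genes were called in either direction. Pklr had 1223, 1283 and 2074 scaled units in KO libraries, against 5028, 4617 and 4046 in WT libraries. The groups lay far apart, and the fall was 3.07-fold (log2 difference -1.62, SE 0.24, limma adjusted p = 0.0189). It did not pass without WT replicate 1 or 2 or without KO replicate 1 or 2 (limma adjusted p between 0.0545 and 0.115).

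Of 53 hormone and transcriptional regulators of glucose output, 2 rose and 0 fell, a share near the 2.71% of all genes. Without WT replicate 3, limma called 3 of the 53 higher and 2 lower, where it called 9.91% of all genes. Irs2, an adaptor of the insulin receptor, had 523, 507 and 599 units in KO libraries, against 263, 295 and 296 in WT libraries (log2 difference 0.93, SE 0.18, limma adjusted p = 0.0393). Its groups did not overlap, but it passed in only 1 of the 6 fits that left out a library, that without WT replicate 3. Nr1d1, a clock repressor also called Rev-erb alpha, had 2493, 3324 and 2073 units in KO libraries, against 1086, 602 and 555 in WT libraries (log2 difference 1.85, SE 0.30, limma adjusted p = 0.0234). It did not pass without WT replicate 2 or without KO replicate 1 or 2 (limma adjusted p between 0.0798 and 0.127). Igfbp1, a binding protein for insulin-like growth factors known to be lowered by insulin, was picked after its values were seen. It had 7154, 3842 and 11451 units in KO libraries, against 1671, 995 and 2515 in WT libraries, and did not pass (log2 difference 2.08, SE 0.45, limma adjusted p = 0.0536). Its groups did not overlap, and without WT replicate 3 it passed (limma adjusted p = 0.0210).

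**Figure D3:**
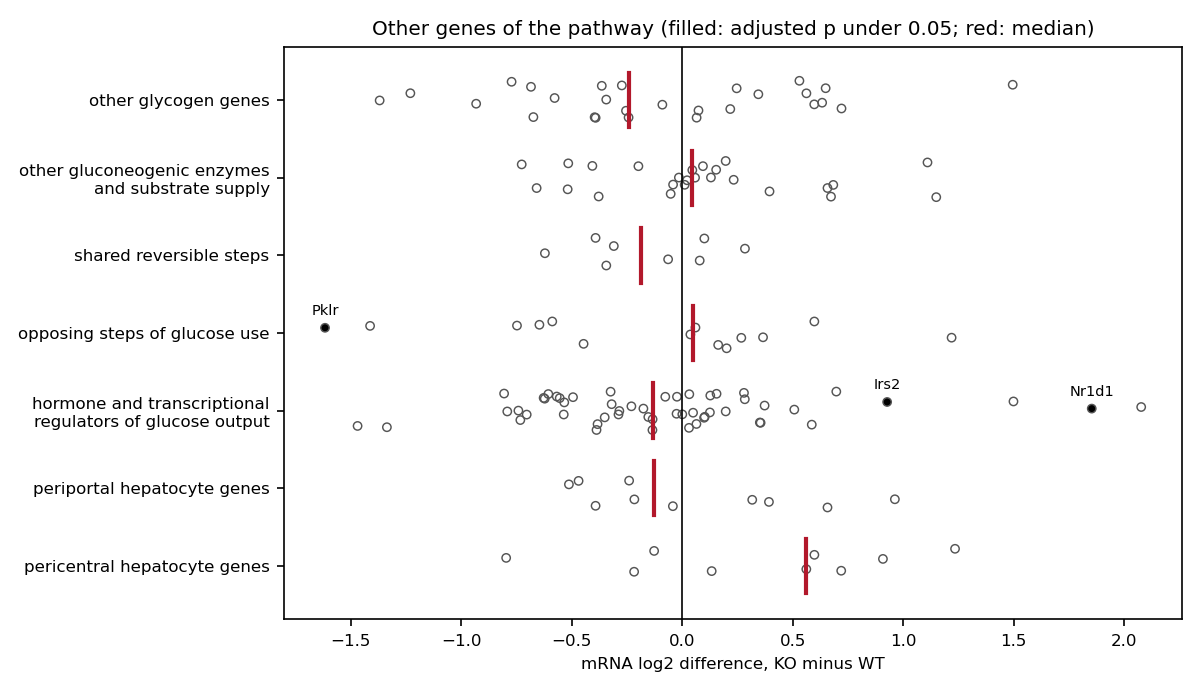
Log2 difference of mRNA, KO minus WT, for each tested gene of the other lists, with 1 circle per gene, filled where the limma adjusted p was under 0.05, and the median of each list as a red line. The 3 filled circles are Pklr on the lower side and Irs2 and Nr1d1 on the higher side.

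The same 10 genes were read in nascent RNA. Ratios are of reads plus 0.5, scaled to library totals and centred on the median gene, with a 95% counting interval. With 1 library per genotype in each method there is no replicate check and no test, and the intervals cover counting error only. The EU libraries held 5583983 reads (KO) and 10833287 reads (WT), and the Br libraries 2317840 reads (KO) and 3156055 reads (WT). In EU, 2 of the 10 genes were at least 2-fold higher, where 24.9% of all genes were, and 3 were at least 2-fold lower, where 22.9% were. In Br, 0 of the 10 were past 2-fold in either direction, where 7.34% of genes were higher and 6.77% lower. The median log2 ratio of the 10 genes was -0.32 in EU and -0.60 in Br, beside -0.08 in EU and 0.01 in Br over the genes tested in mRNA that also had a nascent ratio.

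**Figure D4:**
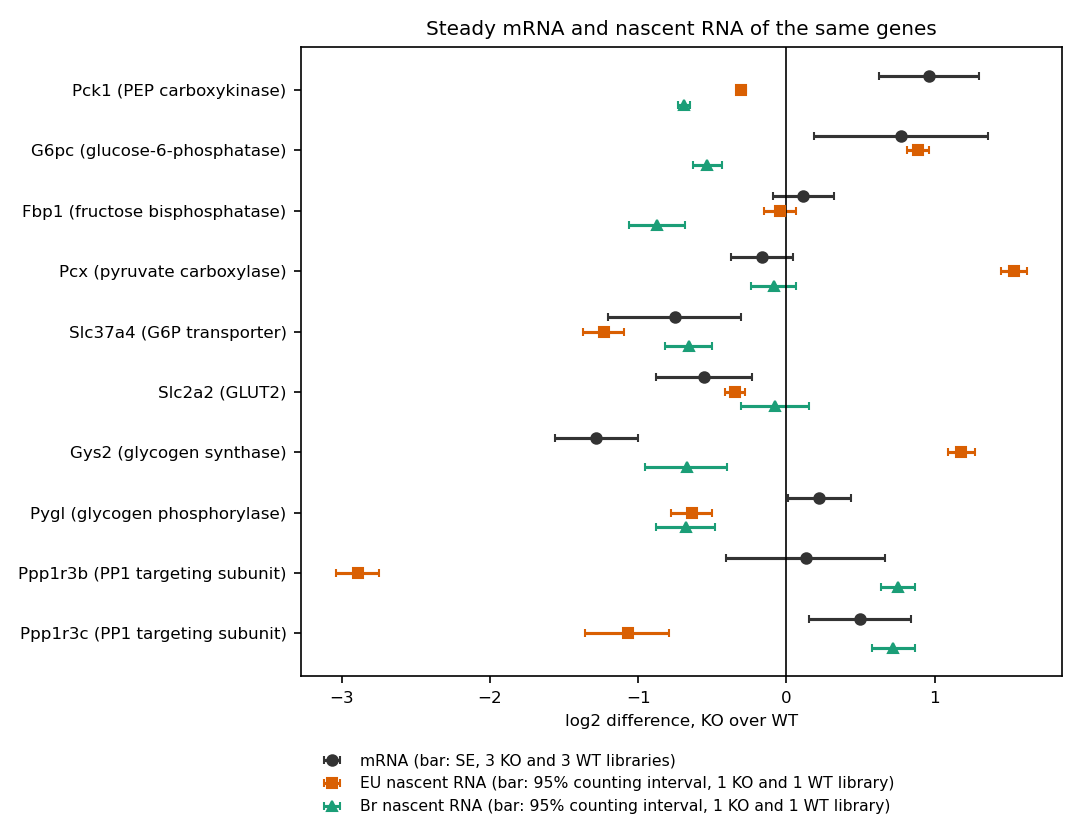
Log2 difference of KO over WT for each gene in mRNA (circles, bars are SE, 3 libraries each), EU (squares) and Br (triangles, both with 95% counting intervals, 1 library each). Slc37a4 and Slc2a2 lie below 0 in all 3 readouts, while Gys2 and Ppp1r3b lie on opposite sides in EU and Br.

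Pck1 had 14114 EU reads in KO and 34156 in WT, a log2 ratio of -0.30 (interval -0.33 to -0.28), and 6922 Br reads in KO and 15197 in WT, a log2 ratio of -0.69 (interval -0.73 to -0.65). Both nascent ratios were thus below 0 while the mRNA lay higher in KO libraries. G6pc had 2866 EU reads in KO and 3032 in WT, a log2 ratio of 0.89 (interval 0.82 to 0.96). Its 1273 Br reads in KO and 2510 in WT gave -0.53 (interval -0.63 to -0.44), on the other side of 0.

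Fbp1 had 1047 EU reads in KO and 2118 in WT, a log2 ratio of -0.05 whose interval held 0 (-0.15 to 0.06). In Br it had 321 reads in KO and 801 in WT, -0.87 (interval -1.06 to -0.68), the lowest Br ratio of the 10 genes. Pcx had 2559 EU reads in KO and 1729 in WT, 1.54 on the log2 scale (interval 1.45 to 1.63), the highest EU ratio of the 10. Its 600 Br reads in KO and 868 in WT gave -0.09, with 0 inside the interval (-0.24 to 0.07).

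The transporters were the only genes of the 10 with 1 sign in mRNA, EU and Br, and the share of all genes with 1 sign was not counted. Slc37a4 had 512 EU reads in KO and 2361 in WT (-1.23, interval -1.38 to -1.10), and 489 Br reads in KO and 1053 in WT (-0.66, interval -0.82 to -0.50). Slc2a2 had 2341 EU reads in KO and 5830 in WT (-0.35, interval -0.42 to -0.28), and 269 Br reads in KO and 386 in WT (-0.07, interval -0.30 to 0.15). The Br interval of Slc2a2 held 0. In Br, all 6 genes of glucose production and export had a ratio below 0, though the intervals of Pcx and Slc2a2 held 0. Of the genes tested in mRNA with a Br ratio, 6664 of 13452 lay below 0.

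Among the glycogen genes, Gys2, Ppp1r3b and Ppp1r3c differed in sign between the 2 methods and Pygl did not. Gys2 had 2030 EU reads in KO and 1757 in WT, a log2 ratio of 1.18 (interval 1.09 to 1.27), against the direction of its mRNA. Its 158 Br reads in KO and 344 in WT gave -0.67 (interval -0.96 to -0.40), on the side of its mRNA. Pygl was below 0 in both methods, with 563 EU reads in KO and 1719 in WT (-0.64, interval -0.78 to -0.50) and 311 Br reads in KO and 679 in WT (-0.68, interval -0.88 to -0.48).

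Ppp1r3b had the largest nascent difference of the 10 genes, with 410 EU reads in KO and 5961 in WT, 7.41-fold lower (log2 ratio -2.89, interval -3.04 to -2.75). In Br it had 1370 reads in KO and 1109 in WT, a log2 ratio of 0.75 (interval 0.64 to 0.87). Ppp1r3c showed the same order, with 130 EU reads in KO and 535 in WT (-1.07, interval -1.36 to -0.79) and 829 Br reads in KO and 685 in WT (0.72, interval 0.57 to 0.87). The EU and Br intervals lay on opposite sides of 0 for 4 of the 10 genes (G6pc, Gys2, Ppp1r3b and Ppp1r3c). They lay on the same side for Pck1, Slc37a4 and Pygl. Of the 13009 genes measured in both methods, 1616 (12.4%) had intervals on opposite sides and 2799 on the same side. For the rest at least 1 interval held 0. At low read numbers intervals are wider and hold 0 more readily, so the 12.4% also depends on read depth.

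**Figure D5:**
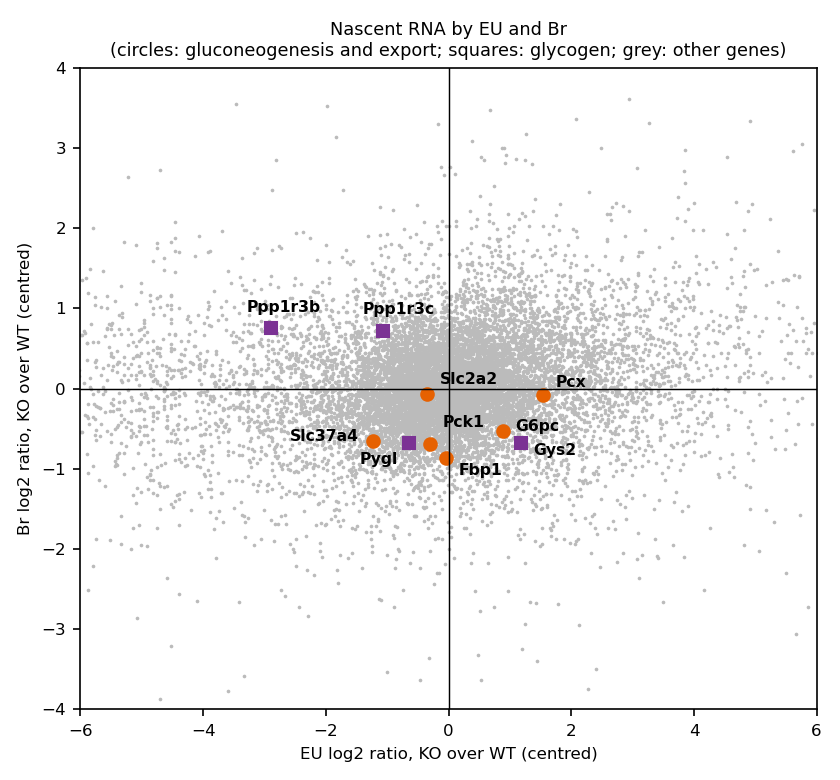
Centred log2 ratio of KO over WT in EU (horizontal) and Br (vertical) for 13009 genes in grey, of which 199 lie outside the axes, with the 6 glucose production and export genes as circles and the 4 glycogen genes as squares. Ppp1r3b and Ppp1r3c lie at the upper left, and G6pc and Gys2 at the lower right.

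The opposing and regulatory genes called in mRNA were read in nascent RNA too. Pklr was lower by both methods, with 143 EU reads in KO and 1764 in WT (log2 ratio -2.65) and 87 Br reads in KO and 383 in WT (-1.69). Irs2 was above 0 in both, with 1.33 in EU and 0.30 in Br. Nr1d1 was at 1.17 in EU and -0.84 in Br. As log2 ratios of KO over WT, the opposing pairs gave 2.35 in EU and 1.00 in Br for Pck1 over Pklr. Pck1 itself was below 0 in both methods (-0.30 in EU and -0.69 in Br), and the pair lay above 0 because Pklr was lower still. Gys2 over Pygl was at 1.82 in EU and 0.01 in Br, so its lower mRNA ratio was not seen in nascent RNA. Fbp1 over Pfkl was at -0.22 in EU and -0.54 in Br, on the other side of 0 from its mRNA ratio.

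Gluconeogenesis is known to be strongest in periportal hepatocytes, near the incoming blood. Of 10 periportal genes, a list that holds Pck1, 0 were called in mRNA by limma (median log2 difference -0.13), with 1 at an unadjusted p under 0.05, where 2.71% of all genes were called and 20.0% had such a p. In nascent RNA 8 of these 10 lay below 0 in EU (median -1.74) and 9 of 10 in Br (median -0.91). Over the genes tested in mRNA that had a ratio, 7048 of 13340 lay below 0 in EU and 6664 of 13452 in Br. Of 9 tested pericentral genes 0 were called in mRNA (median 0.56), with 4 at an unadjusted p under 0.05 beside the same shares of all genes, and their medians were -0.13 in EU and 0.11 in Br.

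The genes whose mRNA followed Pck1, G6pc and Gys2 most closely are given as a description over the 6 libraries, among 10454 genes with a mean of at least 100 units. Pck1 was followed most closely by Ctcflos (Pearson r = 0.991), Amot and Qpct. G6pc was followed by Fgfr1op (r = 0.995), Capn15 and Qpctl. Gys2 was followed by Gnpnat1 (r = 0.995), Snrpd3 and Stard4. Snrpd3, a core protein of splicing particles, was lower in KO libraries with a log2 difference of -1.48 (limma adjusted p = 0.0354), and the other 8 did not pass. Because Snrpd3 was picked for following Gys2 over these same libraries, its direction and p are not a separate result.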

How the data were processed

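Per the submitters' processing notes, TopHat2, Bowtie2, Cufflinks, DESeq, SICER, MACS2 and genome mm9 were used; the counting tool, gene models and any filters were not stated there. In the mRNA files, the authors deposited a score: read numbers scaled with DESeq and rounded. The deposited nascent files hold counts per gene. Every Br count was even, so Br counts were divided by 2. RPKM deposited by the authors for nascent RNA served only as an alternative, since the implied lengths (94 bases for Pcx, 24791 for Slc37a4) make levels between genes unusable.

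mRNA was tested with limma 3.58.1 in R 4.3.3 (trend and robust) on log2(value + 1), keeping genes that reached 10 in 3 or more libraries, two-sided, Benjamini-Hochberg over all genes, called under 0.05. Reads for edgeR 4.0.16 and DESeq2 1.42.0 were re-estimated from the rounding step (15640614 to 27111124 per library) and are approximate for 3 libraries with a step under 1. Nascent ratios used genes with at least 20 reads and exact Clopper-Pearson intervals. Lengths and names came from GENCODE M21, which names 32860 of 37583 IDs. None of the 10 genes shares exon bases with another annotated gene. Outside shared exons, Pcx, Ppp1r3b, Pygl and Slc2a2 overlap a gene on the opposite strand, and Slc37a4 a microRNA gene on the same strand. Whether reads of those genes entered the nascent counts was not checked. Tested on simulated data of the mRNA comparison (16870 genes), limma found 92 of the 100 genes given a 4-fold change and 20 of the 100 given a 2-fold change, beside 7 false calls.

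The 10 genes and all lists were chosen with earlier results of these data known. Named genes are the 10, Kmt5a, called genes of the pathway lists (up to 4 per direction), and the 3 genes most correlated with Pck1, G6pc and Gys2; exceptions are marked. Some results are not reported here. Alternatives were other scalings and tools, pseudocounts of 0.5 and 10, no filter, array weights, a replicate block and each library left out. For nascent RNA they were 5 reads added, 100 reads as the minimum, no centring, and RPKM plus 0.5.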

Additional observations from a re-analysis of the deposited data

Results flagged for a closer look

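In 4 of the 10 genes the KO over WT ratio went one way in EU and the other way in Br, with counting intervals on opposite sides of 0. The difference between the methods was not tested, since each has 1 library per genotype. Of all 13009 genes measured in both methods, 1616 (12.4%) did the same, while 2799 had both intervals on the same side. For the rest at least 1 interval held 0, so the 12.4% also depends on read depth. G6pc had a log2 ratio of 0.89 in EU and -0.53 in Br. Gys2 had 1.18 in EU and -0.67 in Br. Ppp1r3b had -2.89 in EU and 0.75 in Br. Ppp1r3c had -1.07 in EU and 0.72 in Br.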

How the results depend on the processing

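Limma called 227 genes higher and 228 lower, and with TMM scaling 294 higher and 177 lower. DESeq2 called 819 and 829, array weights 4250 and 4160, a replicate block 500 and 514, and edgeR with TMM without WT replicate 3, which was added after seeing the data, 890 and 1106. Leaving out each library gave 13 to 797 higher and 15 to 869 lower, the most without WT replicate 3 and the fewest without KO replicate 2. Of the 10 genes, 0 were called higher and 0 lower. Array weights called 1 higher (Ppp1r3c) and 3 lower (Pcx, Slc37a4 and Gys2), in a fit that called 4250 and 4160 of all 16813 genes. That fit leaned on WT replicate 2 (weight 5.04) and KO replicate 2 (5.26), while the remaining libraries had weights of 0.157 to 0.745. The other 6 settings that called any gene called 1, Gys2, lower: DESeq2, a pseudocount of 10, no filter, the replicate block, the fit without WT replicate 3 and edgeR without it; leaving out each library thus gave 0 to 1 lower and 0 to 0 higher. Over the 6 left-out libraries the log2 difference of Gys2 ran from -1.43 to -1.01 (limma adjusted p 0.0254 to 0.187). Only Ppp1r3b changed sign: its log2 difference ran from -0.46 without KO replicate 3 to 0.52 without KO replicate 1, and it was -0.22 without WT replicate 1. Same-numbered libraries did not deviate together in every pair, so the numbers were not taken as pairs. In EU 3765 genes were past 2-fold higher and 3469 lower, against 2040 and 1728 with at least 100 reads and 2321 and 2167 by RPKM. In Br they were 1134 and 1046, against 313 and 317 with at least 100 reads. In nascent RNA, 76 alternative values of the 10 genes stayed within their counting interval and 4 did not, and none of these 4 changed sign. The causes were not tested. Read depth leaves wide counting intervals for Ppp1r3c in EU (130 reads in KO) and Gys2 in Br (158 reads in KO).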
